A study of Rattus norvegicus with 16 samples.

Results

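The genes described here encode the presynaptic machinery that docks, primes, fuses and retrieves neurotransmitter vesicles. They were chosen by name, as 36 rat genes, and not by any measured value, though earlier results of these data were known. Of the 36, 35 had a probe matched to their symbol on the array, out of 15705 gene symbols measured in all. No value is given for synaptophysin (Syp), the 1 gene without such a probe. RNA came from primary hippocampal neurons of Sprague-Dawley rats at embryonic day 18 (E18), cultured for about a week and read on 1-colour (Cy3) Agilent rat arrays. Cultures were left untreated or received hydroxyurea (HU), an inhibitor of ribonucleotide reductase, at a dose of 5 µM, and were taken after 2, 6, 12 and 24 h, with 3 samples in each of the 5 groups. The labels name no altered allele, and the medium of all cultures held B27 supplement and an antibiotic-antimycotic mix. Before HU was given, the culture medium was exchanged for one whose B27 supplement lacked antioxidants; whether untreated cultures went through the same exchange, and how long before harvest, is not stated, and the time match between untreated and HU cultures is therefore unknown. One protocol field speaks of cultured neurons and another of hippocampal tissue as the source of the RNA. The labels do not say that replicates were separate cultures, so p-values measure only how far these samples spread, and that spread may be technical.

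Release of transmitter rests on SNARE proteins: synaptobrevin on the vesicle zips together with syntaxin and SNAP-25 on the plasma membrane, synaptotagmins and complexins tie fusion to calcium entry, and NSF with the SNAPs takes the spent complex apart. Vesicles are held near release sites by synapsins and Rab3, readied at the active zone by RIM and Munc13 proteins within a scaffold of bassoon and piccolo, filled with glutamate by the vesicular transporters, and recovered after fusion by amphiphysin, dynamin and synaptojanin. In the hippocampus these genes are expressed mainly by neurons and their transcripts become more abundant as synapses form.

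The starts of these genes were searched for 4 short motifs. RefSeq promoters (assembly GRCr8), each spanning 300 bases around a gene's start, were at hand for 32 members and gave 33 sequences, because Unc13b has 2. The cyclic AMP response element TGACGTCA, the site of CREB, was found on either strand in 3 of the 33 (Syn1, Napa and Vamp1) and in 1.83% of 33469 promoters. Of the left and right parts of RE1, the element bound by the neuronal repressor REST, TTCAGCACC was found in 1 of 33 (Unc13a) and in 0.356% of all promoters, and GGACAGCG in 3 of 33 (Pclo, Unc13a and Unc13b) and in 1.21% of all. The letters TACGTG, one form of the hypoxia response element, were in 0 of 33 and in 3.49% of all promoters. Other forms of that element were not searched for. Such matches are letters in a window and say nothing of binding. The promoters that hold the full cyclic AMP element, and that of Unc13a with both RE1 parts, are printed so that the sequence can be read beside the expression of the gene; capitals mark the motif on either strand. Syn1 lies at chrX:3725495-3725794 and Napa at chr1:85915185-85915484, both on the plus strand, Vamp1 at chr4:159698644-159698943 on the plus strand, and Unc13a at chr16:18415737-18416036 on the minus strand.
Syn1: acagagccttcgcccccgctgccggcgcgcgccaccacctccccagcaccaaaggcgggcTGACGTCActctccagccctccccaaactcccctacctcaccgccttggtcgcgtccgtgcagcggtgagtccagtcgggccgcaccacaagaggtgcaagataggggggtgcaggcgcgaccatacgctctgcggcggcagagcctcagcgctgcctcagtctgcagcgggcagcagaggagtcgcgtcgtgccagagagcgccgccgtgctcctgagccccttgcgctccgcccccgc
Napa: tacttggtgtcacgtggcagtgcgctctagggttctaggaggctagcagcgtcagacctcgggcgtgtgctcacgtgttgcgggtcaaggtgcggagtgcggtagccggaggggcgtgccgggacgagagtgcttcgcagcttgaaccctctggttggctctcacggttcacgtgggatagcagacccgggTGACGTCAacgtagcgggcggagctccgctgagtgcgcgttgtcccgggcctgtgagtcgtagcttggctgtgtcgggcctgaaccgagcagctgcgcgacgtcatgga
Vamp1: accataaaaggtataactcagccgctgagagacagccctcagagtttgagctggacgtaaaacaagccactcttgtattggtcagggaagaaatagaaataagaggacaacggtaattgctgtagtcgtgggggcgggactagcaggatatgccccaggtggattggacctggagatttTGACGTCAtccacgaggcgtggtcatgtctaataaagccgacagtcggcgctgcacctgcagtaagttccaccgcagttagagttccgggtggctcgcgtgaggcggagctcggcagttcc
Unc13a: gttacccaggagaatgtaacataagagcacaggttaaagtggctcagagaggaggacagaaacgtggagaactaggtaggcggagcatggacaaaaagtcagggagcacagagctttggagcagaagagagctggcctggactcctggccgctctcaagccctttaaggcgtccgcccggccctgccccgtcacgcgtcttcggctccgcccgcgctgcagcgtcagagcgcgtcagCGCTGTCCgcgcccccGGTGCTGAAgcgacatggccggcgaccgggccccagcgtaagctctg
The 3 genes with the cyclic AMP element had log2 differences from untreated of -0.07 (Syn1), -0.04 (Napa) and -0.03 (Vamp1) at 2 h, and of 0.03, 0.05 and -0.13 in that order at 24 h. Unc13a stood at 0.09 at 2 h and at -0.12 at 24 h.

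Levels are given on a log2 scale as the background-subtracted spot signal less the 75th percentile of the array, so 0 is a bright probe and each unit is a doubling; a level is that of 1 probe and is not compared between genes. The samples took 16 arrays on 2 slides, since untreated replicate 1 was hybridised on both, and its arrays were averaged. Slide 2 carried replicate 3 of the untreated, 2 h, 6 h and 12 h groups, 12 h replicate 2, 24 h replicates 1 and 2, and the repeat array; slide 1 carried the rest. Some arrays, 3 in all, stood apart. Over all 18110 features tested, samples of 1 group correlated at 0.991 to 0.996, but 12 h replicate 3 correlated at 0.983 and 0.985 with its group, and the first array of untreated replicate 1 correlated at 0.983 with its own repeat, whereas that repeat correlated at 0.996 with untreated replicate 2. Replicate spots on the array of 12 h replicate 3 had a median coefficient of variation of 17.1%, against 3.08% to 7.86% on the others. The third was 24 h replicate 2, which gave the highest value of all 15 samples for 19.6% of features and the lowest for 14.4%. In the deposited value table, the values listed for 24 h replicate 1 were those scanned for replicate 3 and the reverse; the scanner files were used as labelled. Of 15 neuron markers with a probe, 14 were well above background in all samples (Prox1 was so in none), as were 10 of 12 markers of GABAergic interneurons, 13 of 14 of astrocytes, 11 of 12 of the oligodendrocyte lineage and 7 of 7 of radial glia. The same held for 6 of 9 markers of fibroblasts and pericytes, 6 of 12 of microglia and 4 of 8 of endothelium; Itgam, C1qc and Ptprc of the microglial list and Cldn5, Flt1, Tek and Esam of the endothelial list were above background in no sample. In bulk RNA, fewer neurons and less RNA per neuron cannot be told apart.

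All 35 measured genes were expressed in these cultures, and none differed from untreated at any time by the test. The tested probe of each was well above background in all 15 samples. With limma's moderated test and Benjamini-Hochberg adjustment, 0 members passed an adjusted p of 0.05 at 2, 6, 12 or 24 h, averaged over the times, or between 24 h and 2 h, and in each of these comparisons 0 of 18110 features (0%) passed. Of the members 1, Rab3a at 12 h, had an unadjusted p under 0.05; over all features such a p was met by 1.19% at 2 h, 0.74% at 6 h, 2.31% at 12 h and 0.861% at 24 h. Intervals from the same fit bound the differences between these samples only, whose spread may be technical, and were not adjusted for the number of members. The 95% interval of the difference lay within 1 log2 unit (a factor of 2) of 0 for 35 of 35 members at 2, 6 and 24 h and for 34 of 35 at 12 h, the exception being Rab3a; it lay within 0.5 of 0 for 18, 22, 17 and 21 members at 2, 6, 12 and 24 h, and for 29 in the mean of the 4 times.

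The members were split between both directions at each time. At 2 h 20 had a lower and 15 a higher mean than untreated, with a median log2 difference of -0.03, beside 49.5% of all features lower and a median of 0.00. At 6 h 23 were lower and 12 higher (median -0.01; all features 52.1% lower, median -0.00). At 12 h 14 were lower and 21 higher (median 0.06; all features 44.5% lower, median 0.02), and at 24 h 21 were lower and 14 higher (median -0.04; all features 45.4% lower, median 0.01). Averaged over the 4 times, 20 were lower and 15 higher (median -0.02; all features 49.1% lower, median 0.00), 0 members and 1.68% of features had an unadjusted p under 0.05, and the 12 HU samples did not overlap the untreated ones for 0 members and 0.0607% of features. The 12 h mean was the highest of the 5 group means for 12 of 35 members, beside 32.5% of all features, and the 24 h mean the lowest for 13, beside 17.1%. The median SD within groups was 0.22 for the members and 0.20 for all features. The median distance between the highest and the lowest of the 5 group means was 0.26 for the members and 0.21 for all features. An SD of single samples and a range of means are unlike measures, so their sizes are not compared.

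**Figure D1:**
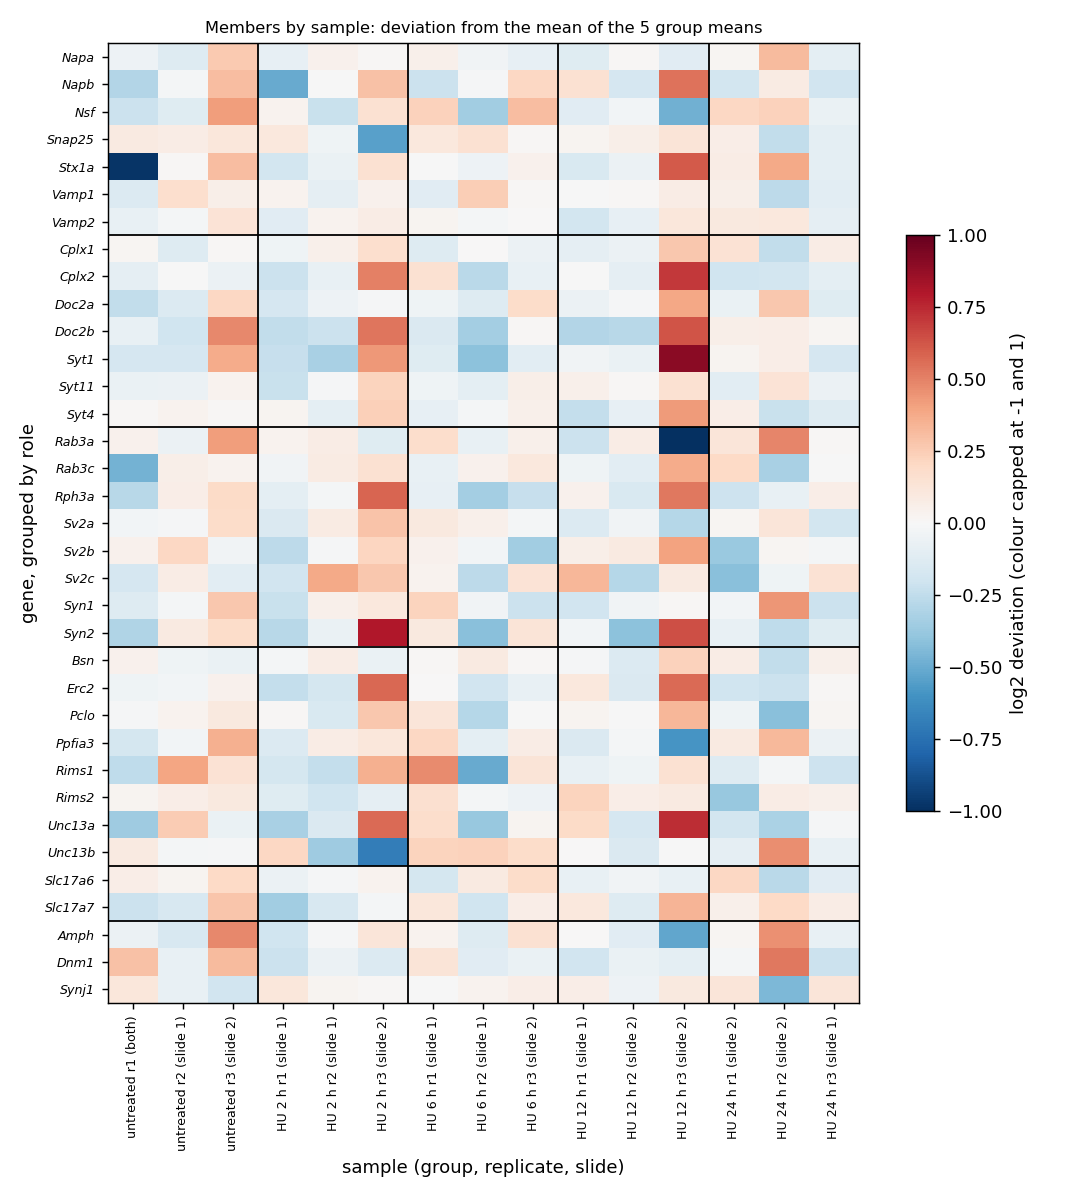
Log2 deviation of each of the 35 members (rows, grouped by role and split by lines) from the mean of its 5 group means, in the 15 samples (columns; vertical lines split the groups, and the slide is in brackets). Colour is capped at -1 and 1. No group forms a block of one colour; the deepest colours lie in single columns, above all 12 h replicate 3.

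**Figure D2:**
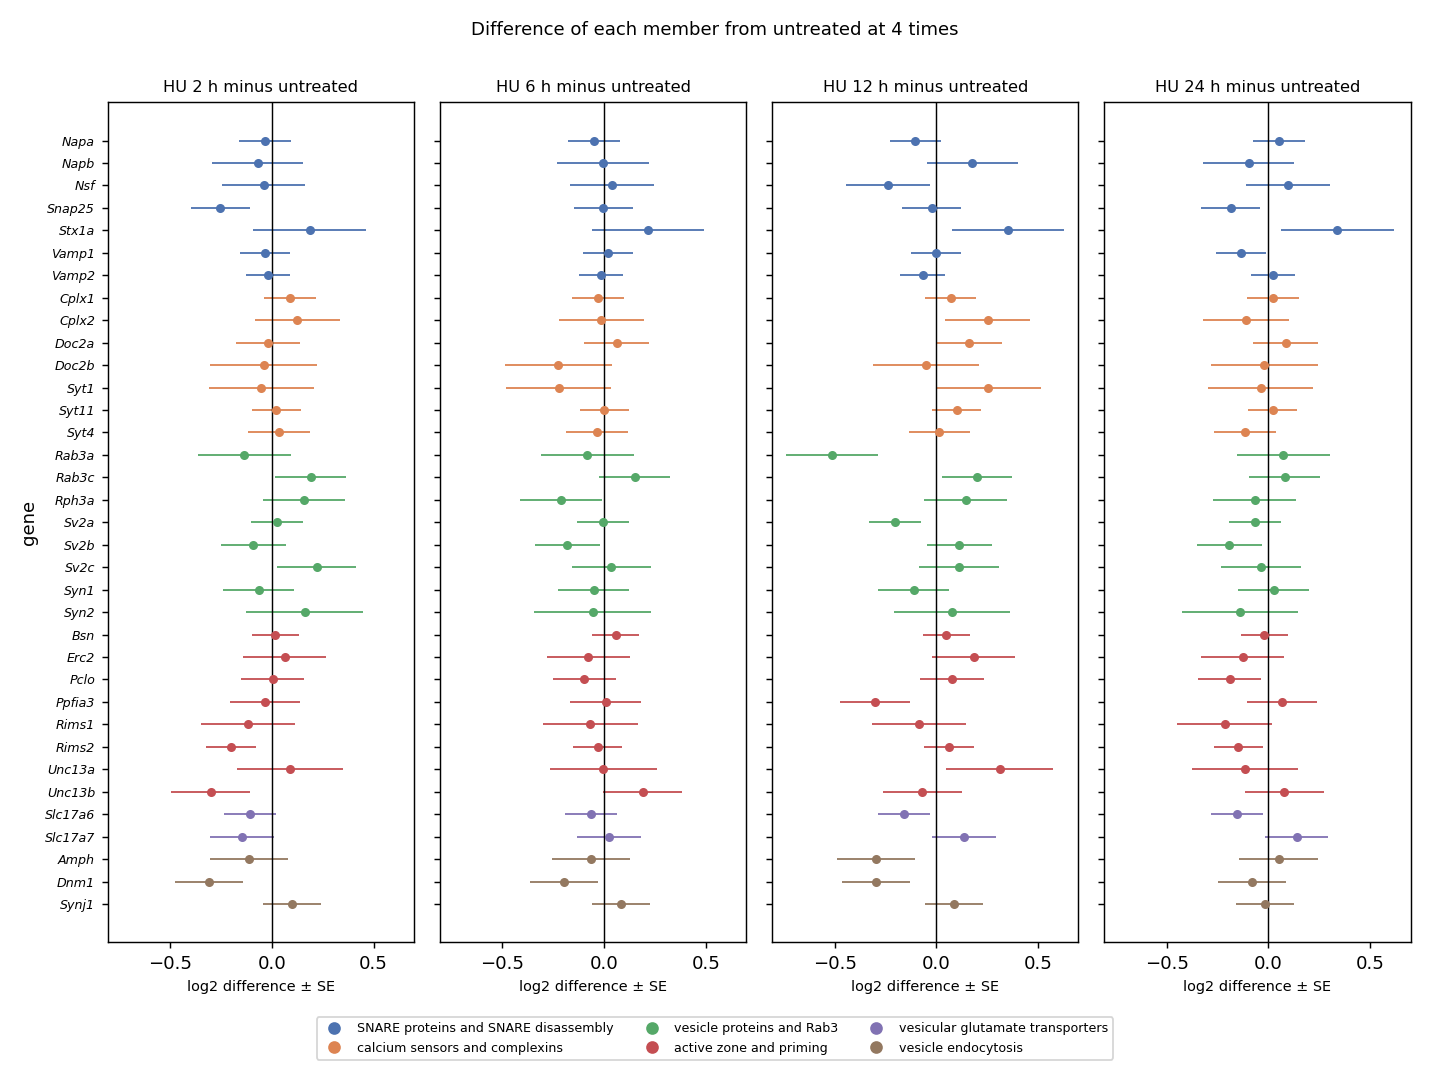
Log2 difference from untreated (x axis) of each member (y axis) at 2, 6, 12 and 24 h; points are differences of means of 3 samples, bars are the SE of the limma fit, and colours give the role. All points lie between -0.51 (Rab3a at 12 h) and 0.35 (Stx1a at 12 h).

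Among the SNARE genes, Snap25, the plasma membrane SNARE with a pair of helices in the fusion complex, was even in untreated neurons and low in single treated samples. Its levels were 1.71, 1.70 and 1.74 in the 3 untreated samples, 1.73, 1.58 and 1.08 at 2 h, 1.72, 1.78 and 1.64 at 6 h, 1.65, 1.68 and 1.75 at 12 h, and 1.69, 1.38 and 1.53 at 24 h. All 3 values at 24 h lay below the untreated ones, by a mean of 0.19 with the largest gap in 24 h replicate 2. On its repeat array alone untreated replicate 1 was at 1.68, just below 24 h replicate 1. The values at 2 h overlapped and only replicate 3 was far below. The difference was -0.25 at 2 h (SE 0.14, unadjusted p = 0.101) and -0.19 at 24 h (SE 0.14, unadjusted p = 0.218) in limma's test, with adjusted p of 1.00 in both. Without 2 h replicate 3 the 2 h difference was -0.06, and without 24 h replicate 2 that at 24 h was -0.11. Within slide 1 the 2 h difference was -0.07 and within slide 2, where 2 h has the 1 sample, -0.63. A second Snap25 probe, for another transcript (NM_001270575), also had its low value at 2 h in replicate 3, at -0.47 against 0.33 and 0.10 in the others. It was as low, at -0.48, in 12 h replicate 3, where the first probe (NM_030991) was at 1.75.

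Stx1a, the plasma membrane syntaxin, had the largest higher mean of the members at 12 and 24 h, and that difference rested on 1 array. The levels were 3.24, 4.23 and 4.53 in untreated samples, 4.04, 4.15 and 4.37 at 2 h, 4.22, 4.17 and 4.26 at 6 h, 4.07, 4.16 and 4.83 at 12 h, and 4.29, 4.60 and 4.12 at 24 h. Untreated replicate 1 was far below all other samples. The array average behind that value joins 2.43 on the first array and 4.05 on the repeat. The difference at 24 h was 0.34 (SE 0.28, unadjusted p = 0.242) and that of the mean of the 4 times 0.27 (SE 0.22, unadjusted p = 0.233), both with an adjusted p of 1.00. With the repeat array alone the 12 h difference was 0.08 and these were 0.07 and 0.00, and without untreated replicate 1 they were -0.04 and -0.11. Within slide 1 the 24 h difference was 0.79 and within slide 2 it was 0.15. Slide 1 held the first array of untreated replicate 1, and replicate 3 was its only 24 h sample.

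Of the other SNARE genes, Vamp2, synaptobrevin 2, the vesicle SNARE of most forebrain synapses, kept within 2.32 and 2.64 over the 15 samples, the narrowest range of the 35 members. The 95% interval of its log2 difference was -0.25 to 0.22 at 2 h and -0.21 to 0.26 at 24 h. Vamp1, the related vesicle SNARE, ranged from -1.25 to -0.73. Napa, alpha-SNAP, which recruits NSF to the spent complex, ranged from -0.11 to 0.34, and its brain form Napb from -4.08 to -3.03. Nsf, the ATPase that takes the complex apart, was at -0.24 (SE 0.21) at 12 h, where replicate 3, at -1.996, was the lowest of all samples. Of the 7 genes of the role, 6 had a lower mean than untreated at 2 h, 4 at 6 h, 4 at 12 h and 3 at 24 h.

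The calcium sensors and complexins had their high values in single samples of several groups. Syt1, synaptotagmin 1, the sensor of fast synchronous release, was at -3.19, -3.19 and -2.65 in untreated samples, -3.26, -3.35 and -2.59 at 2 h, -3.14, -3.43 and -3.13 at 6 h, -3.06, -3.09 and -2.12 at 12 h, and -3.00, -2.96 and -3.20 at 24 h. In untreated, 2 h and 12 h samples 1 value of 3, that of replicate 3, stood above the other two by more than the group means differ. Doc2b, a high-affinity calcium sensor of spontaneous release, was high in the same samples, at -4.41, -4.35 and -4.26 in replicate 3 of untreated, 2 h and 12 h, against -5.23 to -4.83 in all the others. The difference of Syt1 was 0.26 at 12 h (SE 0.26, unadjusted p = 0.340; adjusted p = 0.997) and at most 0.22 in size at the other times, with a 95% interval of -0.59 to 0.52 at 24 h. Cplx2, a complexin, which clamps and then promotes fusion, had its highest levels in 12 h replicate 3 (3.21) and 2 h replicate 3 (3.02), and all 3 values at 24 h (2.31, 2.32 and 2.41) lay just below the untreated ones (2.42, 2.501 and 2.45). That difference was -0.11 (SE 0.21, unadjusted p = 0.612; adjusted p = 1.00). It was larger than the SD of either group (0.041 in untreated and 0.056 at 24 h), while the SE comes from all 5 groups, among them 2 h and 12 h with an SD of 0.38 and 0.44. Groups without overlap were met at 24 h by 2 members, Cplx2 and Snap25, and by 2.94% of all features. With the repeat array alone for untreated replicate 1, 0 members had groups without overlap at 24 h. On that array Cplx2 was at 2.37 and Snap25 at 1.68, below their highest 24 h values of 2.41 and 1.69. The second Snap25 probe overlapped at 24 h, at 0.20, -0.03 and 0.14 against 0.47, 0.15 and 0.23 in untreated samples.

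Cplx1, the other complexin, kept within 3.82 and 4.33. Syt4 and Syt11, synaptotagmins that do not bind calcium as Syt1 does and act in dense-core vesicle release and membrane retrieval, ranged from 2.72 to 3.38 and from -1.09 to -0.65. Doc2a, the relative of Doc2b, ranged from -2.32 to -1.69. Of the 7 genes of the role, 6 had a higher mean at 12 h (median 0.10), and for 6 of the 7 the highest of all 15 samples was 12 h replicate 3.

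**Figure D3:**
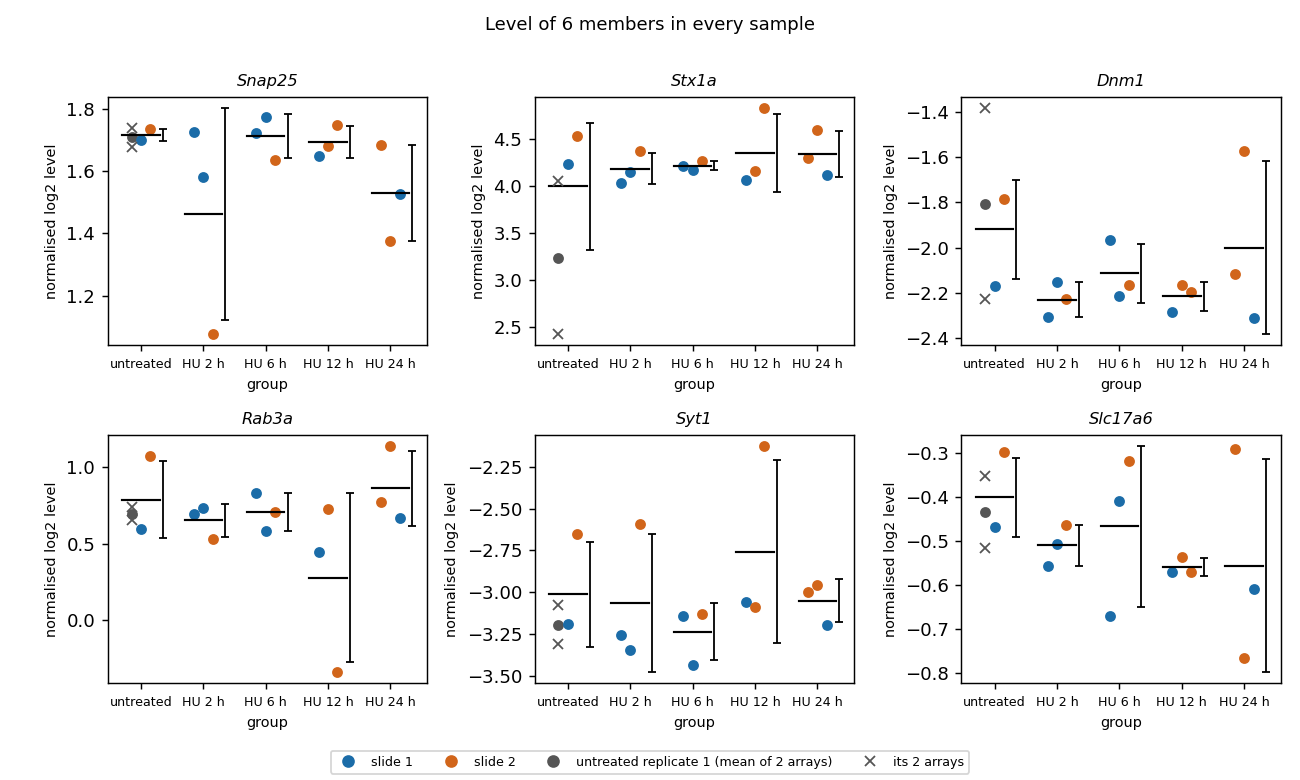
Normalised log2 level (y axis) of 6 members in every sample by group (x axis); dots are samples coloured by slide, crosses are the 2 arrays averaged into untreated replicate 1, lines are group means and bars to their right are the SD (n = 3). Stx1a and Dnm1 differ between the crosses, Rab3a is low in 1 sample of 12 h, and Snap25 is low in 1 sample of 2 h.

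Among vesicle proteins, Rab3a, the most abundant small GTPase on synaptic vesicles, was the member with the smallest unadjusted p. It was at 0.70, 0.60 and 1.07 in untreated samples, 0.69, 0.73 and 0.53 at 2 h, 0.83, 0.58 and 0.71 at 6 h, 0.44, 0.73 and -0.34 at 12 h, and 0.77, 1.14 and 0.67 at 24 h. The value of 12 h replicate 3 was the lowest of the 15 samples, while 12 h replicate 2 lay among the untreated values. The 12 h difference was -0.51 (SE 0.23, unadjusted p = 0.0412; adjusted p = 0.997), with an upper bound of the 95% interval of -0.02. Without 12 h replicate 3 it was -0.20. It was -0.52 with the slide as a block, -0.67 within slide 2, and -0.22 within slide 1, where replicate 1 was the only 12 h sample. Its relative Rab3c was at 0.20 at that time (SE 0.17), and the Rab3 effector Rph3a, rabphilin, was at -0.21 at 6 h (SE 0.20, unadjusted p = 0.312; adjusted p = 1.00) and 0.14 at 12 h.

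Sv2a, the vesicle glycoprotein that binds the drug levetiracetam, was at 0.79, 0.80 and 1.00 in untreated samples and at 0.68, 0.78 and 0.54 at 12 h. All 3 values at 12 h lay below the untreated ones, replicate 2 only just. The difference was -0.20 (SE 0.13, unadjusted p = 0.135; adjusted p = 0.997). Sv2b, its relative, was at -0.18 at 6 h (SE 0.16, unadjusted p = 0.281; adjusted p = 1.00) and at -0.19 at 24 h, and turned to 0.06 at 6 h under normexp background correction. Sv2c, the third form, ranged from -6.04 to -5.25. The synapsins, phosphoproteins that cluster the reserve pool of vesicles, differed from untreated by at most 0.16 at any time: Syn1 ranged from -1.65 to -0.99 and Syn2 from -0.46 to 0.76, with its highest values in 2 h replicate 3 and 12 h replicate 3.

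At the active zone, Rims2, a RIM scaffold that tethers calcium channels and Rab3, was at -3.63, -3.59 and -3.56 in untreated samples, -3.78, -3.86 and -3.75 at 2 h, -3.50, -3.68 and -3.71 at 6 h, -3.44, -3.59 and -3.57 at 12 h, and -4.04, -3.59 and -3.61 at 24 h. The 2 h values did not overlap the untreated ones, which held for 1 of 35 members and for 6.35% of all features. The difference was -0.20 (SE 0.12, unadjusted p = 0.124; adjusted p = 1.00). A second Rims2 probe gave -0.10 (SE 0.19). Rims1, its close relative, had group means within 0.22 of each other and replicates up to 0.97 apart, at -3.32 and -4.29 in 6 h replicates 1 and 2.

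Unc13b, Munc13-2, one of the proteins that prime vesicles by opening syntaxin, lay above untreated in all 3 samples at 6 h. It was at -5.04, -5.15 and -5.14 in untreated samples, -4.92, -5.49 and -5.83 at 2 h, -4.91, -4.91 and -4.95 at 6 h, -5.13, -5.28 and -5.14 at 12 h, and -5.23, -4.67 and -5.21 at 24 h. It was the only member without overlap at 6 h, where 3.84% of all features had none, with a difference of 0.19 (SE 0.19, unadjusted p = 0.345; adjusted p = 1.00). Untreated replicate 1 joins -5.16 on its first array and -4.92 on its repeat. With the repeat array alone it lay above 6 h replicate 3, so the groups overlapped. At 2 h its replicates spread from -5.83 to -4.92, around the untreated values. Unc13a, Munc13-1, the main priming factor of glutamatergic synapses, was at 0.31 at 12 h (SE 0.26, unadjusted p = 0.255; adjusted p = 0.997), where replicate 3 at -1.70 was the highest of all samples.

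Ppfia3, liprin-alpha-3, a scaffold of the active zone, was at -2.82, -2.67 and -2.29 in untreated samples and at -2.79, -2.66 and -3.23 at 12 h. Replicates 1 and 2 at 12 h were within the untreated range and replicate 3 was far below it. The difference at 12 h was -0.30 (SE 0.17, unadjusted p = 0.104; adjusted p = 0.997), and -0.13 without replicate 3. Pclo, piccolo, had a mean of -1.79 ± 0.05 (SD, n = 3) in untreated and -1.98 ± 0.24 in 24 h samples (difference -0.19, SE 0.16, unadjusted p = 0.243; adjusted p = 1.00). That difference was 0.01 within slide 1, where replicate 3 was the only 24 h sample. Bsn, bassoon, the partner of piccolo in the scaffold, differed by at most 0.06 between any HU group and untreated, and Erc2, the scaffold protein CAST, by at most 0.19. Of the 8 genes of the role 4, 5, 3 and 6 had a lower mean than untreated at 2, 6, 12 and 24 h.

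Of the glutamate transporters, Slc17a6, VGLUT2, was lower on average at each time. It was at -0.43, -0.47 and -0.30 in untreated samples, -0.56, -0.51 and -0.46 at 2 h, -0.67, -0.41 and -0.32 at 6 h, -0.57, -0.54 and -0.57 at 12 h, and -0.29, -0.77 and -0.61 at 24 h. The 12 h values lay close together and below all untreated ones. At 2, 6 and 24 h at least 1 sample lay within or above the untreated range. The difference was -0.16 at 12 h (SE 0.13, unadjusted p = 0.234; adjusted p = 0.997) and -0.12 over the 4 times (SE 0.10, unadjusted p = 0.246; adjusted p = 1.00). At 12 h 2 members, Slc17a6 and Sv2a, had groups without overlap, beside 5.06% of all features. Slc17a7, VGLUT1, the main form of mature hippocampal pyramidal cells, was at -4.30, -4.12 and -3.98 at 2 h and at -3.91, -3.75 and -3.88 at 24 h. All 3 values at 24 h were above those at 2 h, and none of either was outside the untreated range of -4.17 to -3.68 except 1 at 2 h. The difference between 24 h and 2 h was 0.28 (SE 0.16, unadjusted p = 0.0914; adjusted p = 1.00), and 1 of 35 members and 2.92% of all features had no overlap in that comparison.

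Among the genes of vesicle retrieval, Dnm1, dynamin 1, the neuronal GTPase that pinches off endocytic vesicles, had the smallest unadjusted p of the members at 2 and 6 h and averaged over the 4 times. It was at -1.81, -2.17 and -1.78 in untreated samples, -2.31, -2.15 and -2.23 at 2 h, -1.97, -2.21 and -2.16 at 6 h, -2.29, -2.17 and -2.20 at 12 h, and -2.12, -1.57 and -2.31 at 24 h. Most treated values lay near that of untreated replicate 2, below untreated replicates 1 and 3, and 24 h replicate 2 was the highest of all. The differences at 2, 6, 12 and 24 h were -0.31, -0.19, -0.30 and -0.08 (SE 0.17 each; unadjusted p = 0.085, 0.264, 0.0988 and 0.639), and -0.22 over the 4 times (SE 0.13, unadjusted p = 0.118), with adjusted p of 0.997 to 1.00 from limma. Untreated replicate 1 gave -1.38 on its first array and -2.23 on its repeat. With the repeat array alone the differences at 2, 6, 12 and 24 h were -0.17, -0.05, -0.16 and 0.06, and that over the 4 times was -0.08. Over the 4 times the difference was -0.45 within slide 1, which held the first array of untreated replicate 1, and -0.10 within slide 2, which held the repeat.

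Amph, amphiphysin, which brings dynamin to the neck of the vesicle, was at -0.30 at 12 h (SE 0.19, unadjusted p = 0.149; adjusted p = 0.997), where replicate 3 was at -0.59 and the other replicates at -0.07 and -0.19. Synj1, synaptojanin 1, the lipid phosphatase that sheds the clathrin coat, ranged from 2.08 in 24 h replicate 2 to 2.66, and 14 of the 15 samples lay at or above 2.34. A second Synj1 probe had the opposite sign at 2, 6 and 12 h (-0.12, -0.02 and -0.09 against 0.10, 0.08 and 0.09).

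**Figure D4:**
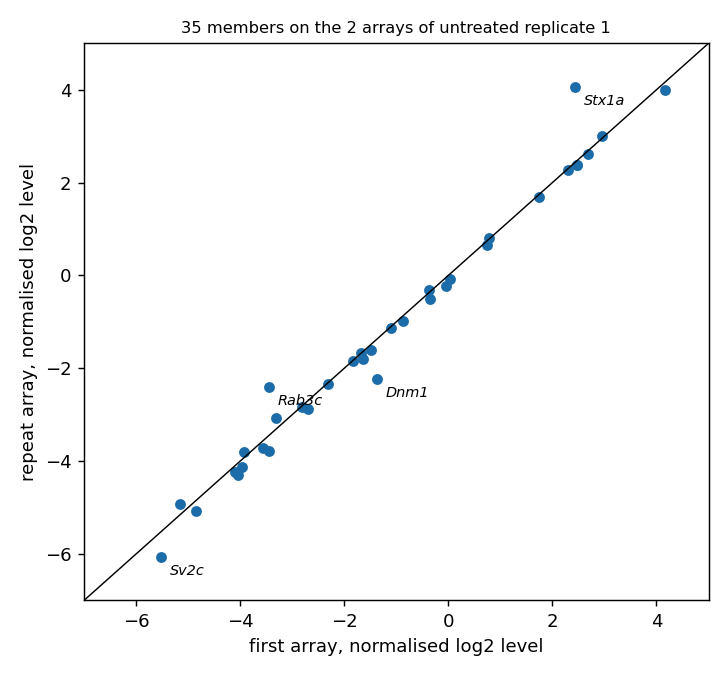
Normalised log2 level of the 35 members on the first (x axis) and the repeat array (y axis) of untreated replicate 1; the line marks equal levels. The 4 named genes differ by over 0.5: Stx1a and Rab3c lie above the line, Dnm1 and Sv2c below it.

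Untreated replicate 1, read on 2 arrays, gave the spread between arrays of 1 sample. Over the members the median size of the difference between the arrays of untreated replicate 1 was 0.13, against 0.11 over all features, and 4 of 35 members (11.4%) and 9.36% of all features differed by over 0.5. Rab3c was at -3.45 on the first and -2.40 on the repeat array, and Sv2c at -5.52 and -6.06. In 12 h replicate 3, 14 of 35 members had their highest and 5 their lowest value of the 15 samples, beside 23.9% and 21.7% of all features, and 24 h replicate 2 held 5 highest and 6 lowest values, beside 19.6% and 14.4%. Without these 3 arrays the median SD within groups was 0.17 for the members and 0.15 for all features, against 0.22 and 0.20 with them, and 0 members had an unadjusted p under 0.05 in any of the 4 times. Members with a lower mean then numbered 21, 22, 26 and 26 of 35 at 2, 6, 12 and 24 h. Of all features 47.5%, 48.5%, 43.8% and 47.6% were lower. The members' medians were -0.02, -0.02, -0.06 and -0.05, beside 0.01, 0.00, 0.02 and 0.01 over all features. Averaged over the 4 times, 25 members were lower and 10 higher, beside 46.8% of all features lower. The 12 h median was 0.06 with these arrays and -0.06 without them.

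Most members differed between the slides in a common direction. In the fit with the slide as a block, 27 of 35 members were higher on slide 2 than on slide 1, with a median difference of 0.13, beside a median of -0.01 and 53.6% of features lower over all. None passed (smallest adjusted p of the members 0.252), and 3 members and 13.7% of all features had an unadjusted p under 0.05. These were Doc2b at 0.43 (SE 0.14), Syt1 at 0.41 (SE 0.14) and Doc2a at 0.23 (SE 0.09), and all 7 calcium sensors and complexins were higher on slide 2. Cell markers differed between the slides as well: 12 of 14 neuron markers (median 0.12), 9 of 11 interneuron markers (median 0.21) and 6 of 8 fibroblast and pericyte markers (median 0.32) were higher on slide 2, and 6 of 7 radial glia markers were lower (median -0.22). The medians were -0.08 for astrocyte, -0.10 for microglial, -0.15 for endothelial and -0.01 for oligodendrocyte markers, and the part of the cell mixture in the members' difference between slides was not tested. Untreated, 2 h and 6 h samples on slide 2 were all numbered replicate 3 (apart from the repeat array), so slide and replicate number cannot be told apart there. The median deviation of the members was 0.15 in replicate 3 of untreated, 2 h and 12 h, and -0.14 in 2 h replicate 1. With the slide as a block, the members' medians at 2, 6, 12 and 24 h were 0.01, -0.01, 0.06 and -0.09. Slide 1 alone gave -0.05, -0.01, 0.02 and -0.01, and slide 2 alone 0.09, -0.01, 0.10 and -0.03. Slide 1 held only replicate 1 at 12 h and replicate 3 at 24 h, and slide 2 only replicate 3 at 2 and 6 h.

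**Figure D5:**
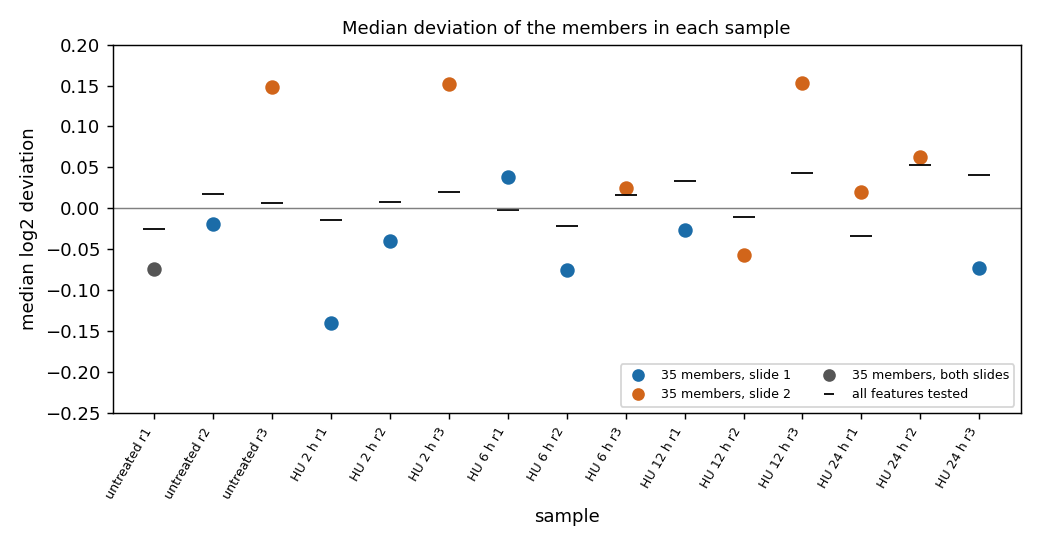
Median log2 deviation (y axis) of the 35 members from their own mean in each of the 15 samples (x axis); dots are coloured by slide and dashes give the same median over all features tested. Replicate 3 of untreated, 2 h and 12 h, on slide 2, are highest at 0.15; 2 h replicate 1, on slide 1, is lowest at -0.14.

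Where a member had a second probe above background, the probes were compared. Of 9 such genes, the sign of the difference from untreated was shared by 5 at 2 h, 4 at 6 h, 4 at 12 h and 7 at 24 h, and the largest gap was 0.47 (Vamp1 at 12 h, where its dimmer probe was at -0.47). A second probe of Vamp2 was well above background in 0 of 15 samples and so has no test.

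Differences among the 4 HU times were looked at with a moderated F test. Of all features 0 passed (0%), and 1.09% had an unadjusted p under 0.05. The smallest unadjusted p among members were 0.113 for Unc13b, 0.113 for Rab3a and 0.183 for Rims2, each with an adjusted p of 1.00. Between 24 h and 2 h 19 members were lower and 16 higher (median -0.03; all features 47.1% lower, median 0.01), and 0 members and 0.756% of features had an unadjusted p under 0.05.

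Of 76 further genes of the presynapse (among them other synaptotagmins, SNARE genes, Rabs, dynamins, adaptors and scaffold genes), 63 were measured and 0 passed at any time. Lower means were found for 43, 35, 35 and 36 of the 63 at 2, 6, 12 and 24 h, with medians of -0.03, -0.01, -0.01 and -0.02. Over all features 49.5%, 52.1%, 44.5% and 45.4% were lower, with medians of 0.00, -0.00, 0.02 and 0.01. The other dynamin genes had the largest higher means, Dnm3 at 0.66 at 2 h and 0.67 at 24 h and Dnm2 at 0.52, 0.57 and 0.58 at 2, 6 and 24 h. In untreated samples Dnm2 was at 0.81, 2.44 and 2.31 and Dnm3 at -3.21, -1.84 and -1.66, so that replicate 1 was far below the others in both. On the first array of that sample Dnm2 was at -0.78 and Dnm3 at -4.89, and on its repeat they were at 2.40 and -1.54. With the repeat array alone the 2 h difference of Dnm2 was -0.01. Rab27b, a Rab of secretory vesicles, was at -0.24 at 6 h, and at 12 h the vesicle priming factor Cadps was at -0.32 and the adaptor subunit Ap2a2 at -0.50, both with their lowest value of all samples in 12 h replicate 3.

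Markers of other cells were read beside these values. The summed signal of the 13 astrocyte markers with a tested probe, in units of each array's 75th percentile, was 125 to 149 in untreated samples. In HU samples it was 157 to 164, 155 to 160, 161 to 189 and 151 to 170 at 2, 6, 12 and 24 h. The sum of the 14 neuron markers with a tested probe was 244 to 279 in untreated samples. At the HU times it was 236 to 302, 240 to 292, 253 to 301 and 256 to 282 in the same order. The astrocyte sums did not overlap untreated at any time, but a sum is weighted to the brightest markers. Taken singly, 1, 1, 2 and 0 of the 13 markers had no overlap at 2, 6, 12 and 24 h. Over all features 6.35%, 3.84%, 5.06% and 2.94% had none. A lower mean was found for 5, 3, 1 and 2 of the 13. Aldoc had the largest higher mean at each time (0.44, 0.40, 0.54 and 0.41). The sums of the other 7 lists (neurons, interneurons, microglia, oligodendrocyte lineage, endothelium, fibroblasts and pericytes, radial glia) overlapped untreated at each time. Radial glia sums were 80.0 to 114 in untreated and 88.5 to 131 in HU samples, interneuron sums 46.7 to 58.4 and 42.8 to 59.4, oligodendrocyte sums 33.8 to 39.4 and 27.5 to 40.7. Those of fibroblasts and pericytes were 1.52 to 2.81 and 1.43 to 3.32, of microglia 0.757 to 0.968 and 0.762 to 1.14, and of endothelium 0.379 to 0.578 and 0.416 to 0.562; the part of the cell mixture in the members' levels was not tested.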

How the data were processed

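The scanner output deposited by the authors gives an intensity per spot, made with Agilent's Feature Extraction (version 11.5.1.1, protocol GE1_1105_Oct12) per the file headers, already background-subtracted and not scaled between arrays, with flags for outliers, saturation and signal above background. The authors' deposited values hold a score that the scanner files show to be a Z-score per array of the log signal (correlation 0.999996); it was an alternative only. Of 62976 spots, 4259 control spots were left out, along with outlier flags; spots of a probe were averaged. Probes (30367) were named through RefSeq accessions without versions: 18758 matched 15715 symbols, 15705 of which had a probe usable on every array. The value was log2 of the processed signal less the array's 75th percentile. Each gene was read by its brightest probe, which had to be well above background on all arrays of some group, leaving 18110 features (11083 genes and 7027 unnamed probes).

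Comparisons used limma 3.58.1 (R 4.3.3), with 1 fit over 15 samples, 3 per group, with no covariate (10 residual and 3.56 prior degrees of freedom). Tests were two-sided, with Benjamini-Hochberg adjustment within each comparison at 0.05. The script was tested on simulated data. The number of arrays limits the precision. Named were, for each comparison with untreated, the 3 members and the 2 other presynaptic genes with the smallest unadjusted p, with every member whose groups did not overlap; remaining members are described by role. Alternatives were normexp background correction (offset 50, on the median spot and background signals, since the files hold no mean signal), other scalings, probe rules and filters, the slide, the arrays of untreated replicate 1, a replicate block, array weights and each replicate left out. The members and lists were chosen with earlier results of these data known.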

Additional observations from a re-analysis of the deposited data

Results flagged for a closer look

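For 2 members, every sample of 1 HU time lay on one side of the untreated mean and every sample of another time on the other side. The share of all features with such a pattern was not computed, so the count of members cannot be judged. Unc13b was 0.19 above untreated at 6 h (SE 0.19) and -0.068 from it at 12 h. Rims2 was at -0.20 at 2 h (SE 0.12) and at 0.063 at 12 h. Its 12 h replicate 2, at -3.592, was barely above the untreated mean of -3.597. The second Rims2 probe was at -0.10 at 2 h and at -0.047 at 12 h, lower at both times. The difference between these pairs of times was not tested on its own; the moderated F test among the 4 times gave unadjusted p of 0.113 for Unc13b and 0.183 for Rims2, both with an adjusted p of 1.00.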

How the results depend on the processing

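The count of 0 members past the threshold held under all 34 alternative settings in every comparison, and so did the count of 0 features except for 4 at 12 h within slide 1, where 12 h has 1 sample assumed to vary like the other groups, and 1 for the average of the 4 times in a replicate block with 24 h replicates 1 and 3 exchanged. That setting, the one without 12 h replicate 3 and 24 h replicate 2, and the one without 3 arrays (these and the first array of untreated replicate 1) were chosen after seeing the data. The replicate block as numbered gave 0 features in each comparison. Deviations of same-numbered samples correlated at a median of 0.13 (30 pairs, -0.42 to 0.43; 19 over 0.1), those on the same slide at 0.14, and 7 of 15 samples correlated best with their own number, so the numbers were not taken to pair the samples.

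The members' median log2 difference moved by more than its spread between replicates, an SD of 0.11, in these cases. At 2 h it moved to 0.090 within slide 2, where replicate 3 was the only 2 h sample, and to 0.081 without untreated replicate 3. At 12 h it moved to -0.050 without 12 h replicate 3, alone or together with 24 h replicate 2, and to -0.064 without 3 arrays. Between 24 h and 2 h it moved to -0.17 within slide 2. With 1 replicate left out in turn it ranged from -0.11 to 0.081 at 2 h and from -0.050 (without 12 h replicate 3) to 0.12 at 12 h. Of single genes, the sign turned for Sv2b at 6 h under normexp (0.056), Pclo at 24 h within slide 1 (0.0070), Dnm3 at 2 h with probes well above background on all arrays only (-0.049), and Dnm2 at 2 h with the repeat array or without 3 arrays (-0.0056). For Stx1a it turned without 3 arrays at 24 h (-0.063) and over the 4 times (-0.090); with 1 replicate left out in turn it ranged from -0.041 to 0.60 at 24 h and from -0.11 to 0.54 over the 4 times, with the lower values without untreated replicate 1. The cause was not tested.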
